A study of Homo sapiens with 12 samples.

Results

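The 9 genes described here encode 8 drug-metabolising cytochrome P450 enzymes (CYP1A1, CYP2B6, CYP2D6, CYP2E1, CYP3A4, CYP3A5, CYP3A7 and CYP3A43) and POR, the NADPH-cytochrome P450 reductase. They were taken by name, and all 9 had a row among the 35810 genes to which transcript estimates were summed. Polyadenylated RNA was sequenced in 12 libraries of HepG2, a human hepatoblastoma-derived cell line with part of the hepatocyte programme. The 4 groups, of 3 biological replicates each, were ARID1B-KO cells given sorafenib at 5 µM, ARID1B-KO cells given DMSO, WT cells given sorafenib at 5 µM and WT cells given DMSO, all for 48 h. ARID1B belongs to BAF, a complex that moves nucleosomes, and was targeted with CRISPR/Cas9. The labels do not say whether the knockout libraries came from 1 clone or several. Sorafenib is a kinase inhibitor used against liver cancer, and the study asked whether loss of ARID1B alters the response to it.

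P450 enzymes are haem proteins of the endoplasmic reticulum that insert an oxygen atom into drugs, steroids and other small molecules, and POR passes them the electrons for it. CYP3A4 is the main drug-oxidising P450 of the adult liver and also oxidises sorafenib, CYP3A7 is the main CYP3A enzyme of the fetal liver, and CYP3A5 is found in only some adults. CYP1A1 is induced through the aryl hydrocarbon receptor AHR, and the CYP3A genes and CYP2B6 are induced through the nuclear receptors PXR (gene NR1I2) and CAR (gene NR1I3). HepG2 cells are known for low levels of most of these enzymes compared with hepatocytes.

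The libraries held 19739582 to 29398257 estimated counts, and 12821 genes passed the filter on low counts. Among the 13 hepatocyte and HepG2 markers, 13 were above 1 CPM (counts scaled to the size of the library) in each group. Their summed level was 118500 to 184500 CPM in ARID1B-KO with sorafenib, 92420 to 111100 CPM in ARID1B-KO with DMSO, 100800 to 109900 CPM in WT with sorafenib and 82080 to 91660 CPM in WT with DMSO. Single markers went both ways (edgeR adjusted p under 0.05). Sorafenib raised 6 and lowered 3 in ARID1B-KO (23.0% and 23.7% of all genes), and raised 6 and lowered 4 in WT (17.5% and 18.0%). Between genotypes 1 was higher and 3 lower in sorafenib (13.2% and 13.8%), and 2 higher and 3 lower in DMSO (14.3% and 13.5%). FGB was lower in ARID1B-KO by -4.03 ± 0.20 in sorafenib (log2 fold change, SE, edgeR adjusted p = 3.78e-08) and -3.95 ± 0.21 in DMSO (adjusted p = 3.33e-08). ALB, named after its values were seen, was higher in ARID1B-KO by 1.04 ± 0.19 in sorafenib (edgeR adjusted p = 0.00136) and 0.65 ± 0.19 in DMSO (adjusted p = 0.0205). Of 4 leukocyte markers, PTPRC was listed at 0 throughout and the summed level stayed between 2.34 and 3.97 CPM. The 4 stromal markers, with COL1A2 and DCN listed at 0, summed to 69.5 to 85.0 CPM in ARID1B-KO with sorafenib, 37.3 to 38.2 CPM in ARID1B-KO with DMSO, 59.7 to 64.5 CPM in WT with sorafenib and 23.8 to 26.3 CPM in WT with DMSO. Only 1 of the 4 was above 1 CPM in each group, and only ACTA2 was tested, so these sums do not describe a stromal set. ACTA2 rose with sorafenib by 1.06 ± 0.08 in ARID1B-KO (edgeR adjusted p = 8.08e-07) and 1.29 ± 0.09 in WT (adjusted p = 2.68e-07). The 3 endothelial markers summed to 7.01 to 10.7 CPM in ARID1B-KO with sorafenib, 2.93 to 6.70 CPM in ARID1B-KO with DMSO, 2.91 to 4.14 CPM in WT with sorafenib and 1.16 to 1.95 CPM in WT with DMSO, so that the ARID1B-KO sorafenib libraries were the highest, as they were in summed P450 level. Of these 3, VWF was higher in ARID1B-KO than in WT in DMSO by 2.08 ± 0.42 (log2 fold change, SE, edgeR adjusted p = 0.00267) and CDH5 by 1.61 ± 0.33 (adjusted p = 0.00333, 0.0561 with an offset for transcript length), and PECAM1 reached at most 0.67 CPM. The 4 cholangiocyte markers summed to 516 to 615 CPM in ARID1B-KO with sorafenib, 434 to 501 CPM in ARID1B-KO with DMSO, 515 to 517 CPM in WT with sorafenib and 468 to 502 CPM in WT with DMSO. Among them, KRT19 was higher (0.61 ± 0.15, edgeR adjusted p = 0.00932) and SOX9 lower (-0.25 ± 0.08, adjusted p = 0.0278) in ARID1B-KO than in WT under sorafenib. The part of these marker levels in the P450 results was not tested. ARID1B transcript was lower in ARID1B-KO than in WT, by a log2 fold change of -1.18 ± 0.11 in sorafenib (SE, edgeR adjusted p = 8.89e-06) and -1.19 ± 0.11 in DMSO (adjusted p = 7.44e-06).

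The 4 CYP3A genes lie together on chromosome 7 of GRCh38, within 99648194 to 99866093. CYP3A5 (99648194 to 99679996), CYP3A7 (99705036 to 99735196) and CYP3A4 (99756960 to 99784248) are on the minus strand, and CYP3A43 (99828013 to 99866093) is on the plus strand. POR is on the same chromosome at 75899200 to 75986855, plus strand. CYP1A1 is on chromosome 15 (74719542 to 74725536, minus strand), CYP2D6 on chromosome 22 (42126499 to 42130865, minus strand), CYP2B6 on chromosome 19 (40991282 to 41018398, plus strand) and CYP2E1 on chromosome 10 (133520406 to 133561220, plus strand).

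The 250 bases before the RefSeq start of the 4 CYP3A genes and of CYP1A1 are shown. They were chosen because CYP3A genes of 1 cluster, with promoters of differing likeness, differed in the comparisons they passed, and because CYP1A1 moved the other way. The changes of these genes were not compared with each other by a test, and CYP3A4, at low counts, passed no comparison. The gene spans above are from another annotation, GENCODE, which places the starts of CYP3A4 and CYP1A1 further upstream, within these stretches. The sequences are from RefSeq (GRCh38.p14), 5′ to 3′ on the strand of the gene. Capitals mark matches, on either strand, to the nuclear receptor motifs AGGTCA and AGTTCA and to the AHR core GCGTG, which do not overlap one another here.
CYP3A7: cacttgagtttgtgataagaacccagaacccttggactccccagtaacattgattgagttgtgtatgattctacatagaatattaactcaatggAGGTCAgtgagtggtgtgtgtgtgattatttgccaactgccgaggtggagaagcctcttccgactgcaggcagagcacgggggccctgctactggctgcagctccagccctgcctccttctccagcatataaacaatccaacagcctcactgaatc
CYP3A4: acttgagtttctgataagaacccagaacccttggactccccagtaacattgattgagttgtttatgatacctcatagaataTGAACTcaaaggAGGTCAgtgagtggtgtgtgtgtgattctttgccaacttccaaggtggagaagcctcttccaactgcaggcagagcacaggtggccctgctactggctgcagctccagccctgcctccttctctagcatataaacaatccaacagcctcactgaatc
CYP3A5: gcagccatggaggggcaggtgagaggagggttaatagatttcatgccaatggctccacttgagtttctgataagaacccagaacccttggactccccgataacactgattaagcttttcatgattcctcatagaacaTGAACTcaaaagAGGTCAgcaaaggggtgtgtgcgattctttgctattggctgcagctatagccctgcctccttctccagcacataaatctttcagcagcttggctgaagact
CYP3A43: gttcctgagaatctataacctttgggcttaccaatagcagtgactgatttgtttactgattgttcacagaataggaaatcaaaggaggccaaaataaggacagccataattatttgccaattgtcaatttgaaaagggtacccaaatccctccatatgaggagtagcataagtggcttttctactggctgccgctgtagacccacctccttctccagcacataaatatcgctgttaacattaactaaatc
CYP1A1: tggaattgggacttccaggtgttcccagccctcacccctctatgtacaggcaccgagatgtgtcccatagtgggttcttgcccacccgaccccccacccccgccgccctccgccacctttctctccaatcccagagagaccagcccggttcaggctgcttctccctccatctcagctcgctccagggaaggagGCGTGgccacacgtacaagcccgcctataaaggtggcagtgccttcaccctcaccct

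The positions are chr7:99735197-99735446 for CYP3A7, chr7:99784185-99784434 for CYP3A4, chr7:99679997-99680246 for CYP3A5, chr7:99827763-99828012 for CYP3A43 and chr15:74725529-74725778 for CYP1A1. The CYP3A7 and CYP3A4 stretches were 94.0% identical in a global alignment, 236 of 251 alignment columns. CYP3A43 was 63.9% identical to CYP3A7 and 65.7% to CYP3A4, and CYP3A5 was 52.1% identical to CYP3A7 and 52.8% to CYP3A4. Columns with a gap counted as differences, and CYP3A5 was spread over 307 columns with CYP3A7 and 309 with CYP3A4. The printed CYP3A5 and CYP3A4 stretches share long runs of bases at shifted positions, so the CYP3A5 percentages understate that likeness. Pairs from different families, CYP1A1, CYP2B6 and CYP2E1 among them, gave 45.0% to 52.4% in the same alignment. CYP3A4 and CYP3A5 each held an AGTTCA match, on the opposite strand, followed by AGGTCA, CYP3A7 held AGGTCA alone, and CYP3A43 held neither. AGGTCA was found in 12.1% and AGTTCA in 8.80% of 35116 promoters of the same length, and the GCGTG of the CYP1A1 stretch in 32.2%. These matches describe the letters in the window and show no binding.

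Levels of different genes were compared in TPM, which corrects for transcript length. POR was the most abundant of the 9 in every library, at 559 ± 123 TPM in ARID1B-KO with sorafenib, 511 ± 103 TPM in ARID1B-KO with DMSO, 469 ± 41.4 TPM in WT with sorafenib and 429 ± 54.8 TPM in WT with DMSO (SD, n = 3 each). Most of that level lay on short transcripts and retained introns, and the protein-coding POR-218, of 2446 bases, held 22.6, 25.7 and 17.0 TPM in the ARID1B-KO sorafenib libraries, 20.7, 17.3 and 22.4 TPM in the ARID1B-KO DMSO libraries, 16.5, 12.5 and 15.3 TPM in the WT sorafenib libraries and 11.2, 10.1 and 12.7 TPM in the WT DMSO libraries. The 8 P450 genes together summed to 25.8, 29.3 and 25.2 TPM in the ARID1B-KO sorafenib libraries, 10.4, 13.6 and 12.4 TPM in the ARID1B-KO DMSO libraries, 12, 13.8 and 13.5 TPM in the WT sorafenib libraries and 6.96, 8.40 and 14.2 TPM in the WT DMSO libraries. The ARID1B-KO sorafenib libraries stood above all the others, and the other 3 groups overlapped.

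CYP3A7 led the 8 P450 genes described here by mean TPM in all 4 groups. It held 50.3% ± 2.7 of the summed TPM of these 8 genes in ARID1B-KO with sorafenib, 49.4% ± 3.5 in ARID1B-KO with DMSO, 32.6% ± 0.6 in WT with sorafenib and 36.4% ± 10.2 in WT with DMSO. CYP2W1, outside these 8 genes and described below, had a higher mean TPM than CYP3A7 in each group. In ARID1B-KO with sorafenib the order of mean TPM was CYP3A7 (13.5 ± 1.8), CYP3A43 (7.24 ± 0.28), CYP3A5 (3.26 ± 0.25), CYP2D6 (1.34 ± 0.18), CYP3A4 (0.793 ± 0.189), CYP1A1 (0.422 ± 0.304) and CYP2E1 (0.209 ± 0.091). Only CYP1A1 and CYP2E1 overlapped as neighbours in that order. In ARID1B-KO with DMSO, CYP1A1 came next after CYP3A7, at 3.11 ± 0.80 TPM, followed by CYP3A5 at 1.58 ± 0.40 and CYP3A43 at 0.832 ± 0.309, whose ranges overlapped. In WT with sorafenib, CYP3A7 (4.27 ± 0.31 TPM), CYP3A5 (3.93 ± 0.69) and CYP3A43 (3.12 ± 0.39) overlapped one with the next. In WT with DMSO, CYP3A7 (3.34 ± 0.27 TPM), CYP3A5 (2.61 ± 0.58), CYP1A1 (2.26 ± 1.26) and CYP3A43 (1.24 ± 1.51) did so too.

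**Figure D1:**
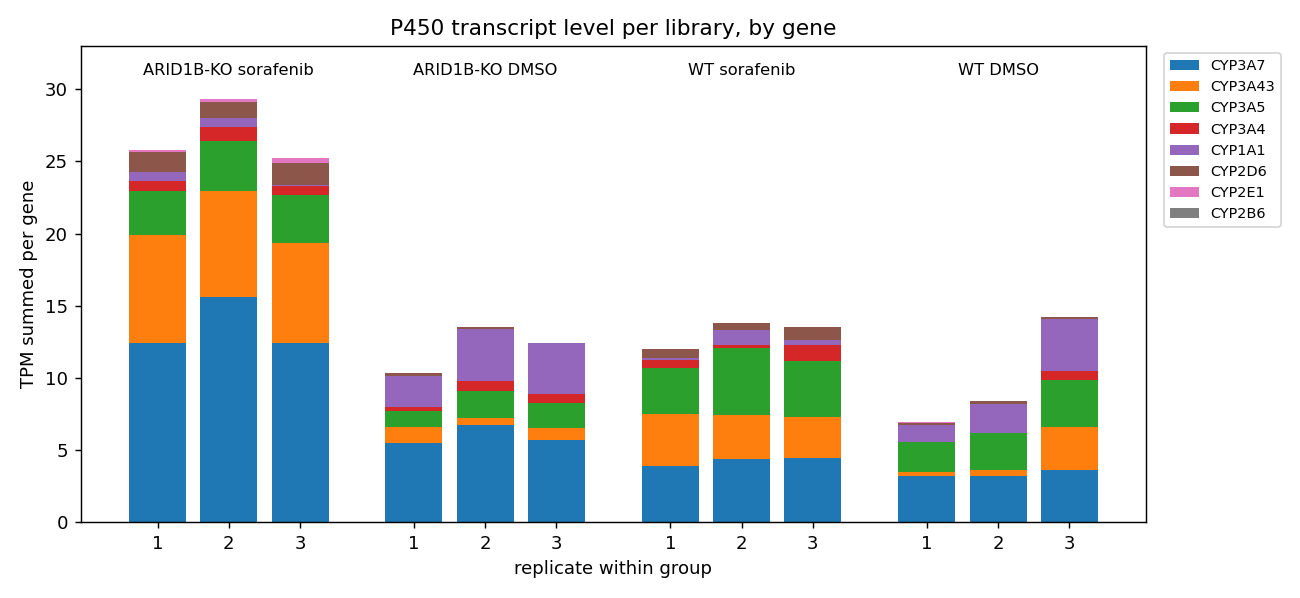
Stacked bars give the TPM of the 8 P450 genes in each library, with the replicate number on the x axis and the group above the bars. The 3 ARID1B-KO sorafenib bars reach 25.2 to 29.3 TPM, and CYP3A7 is the lowest segment of each bar.

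CYP2B6 and CYP2E1, which oxidise drugs and small solvents, did not pass the filter on low counts and were not tested. CYP2B6 had 1 count in ARID1B-KO DMSO replicate 1 and 1 in WT DMSO replicate 2, and was listed at 0 in the other libraries. CYP2E1 had 2, 1 and 4 counts in the ARID1B-KO sorafenib libraries and 1 count in WT DMSO replicate 1, with 0 listed elsewhere. A count of 0 allows up to 3 counts, which is 0.103 to 0.148 CPM depending on the library, and covers counting error only.

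In ARID1B-KO cells, sorafenib raised CYP2D6, CYP3A5, CYP3A7 and CYP3A43 and lowered CYP1A1, so that 5 of the 7 tested genes passed the edgeR test (adjusted p under 0.05, Benjamini-Hochberg over 12821 genes). The background is 46.7% of all genes tested, with 23.0% higher and 23.7% lower. In WT cells, CYP2D6 and CYP3A43 rose and CYP1A1 fell, 3 of 7 against 35.4% of all genes, with 17.5% higher and 18.0% lower. CYP3A7 and CYP3A43 were higher, and POR was higher by a small margin, in ARID1B-KO than in WT under sorafenib, 3 of 7 against 27.0% of all genes, with 13.2% higher and 13.8% lower. In DMSO, CYP3A7 was higher and CYP3A5 lower in ARID1B-KO than in WT, 2 of 7 against 27.8% of all genes, with 14.3% higher and 13.5% lower. The response to sorafenib differed between the genotypes for CYP3A7, 1 of 7 against 0.835% of all genes, with 0.374% higher and 0.46% lower. Libraries of the compared groups did not overlap for 52.9% of all genes with sorafenib in ARID1B-KO, 50.8% with sorafenib in WT, 42.7% between genotypes in sorafenib and 42.2% between genotypes in DMSO. Because the libraries measure RNA in bulk, fewer expressing cells and less RNA in each cell cannot be told apart in any of these results.

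**Figure D2:**
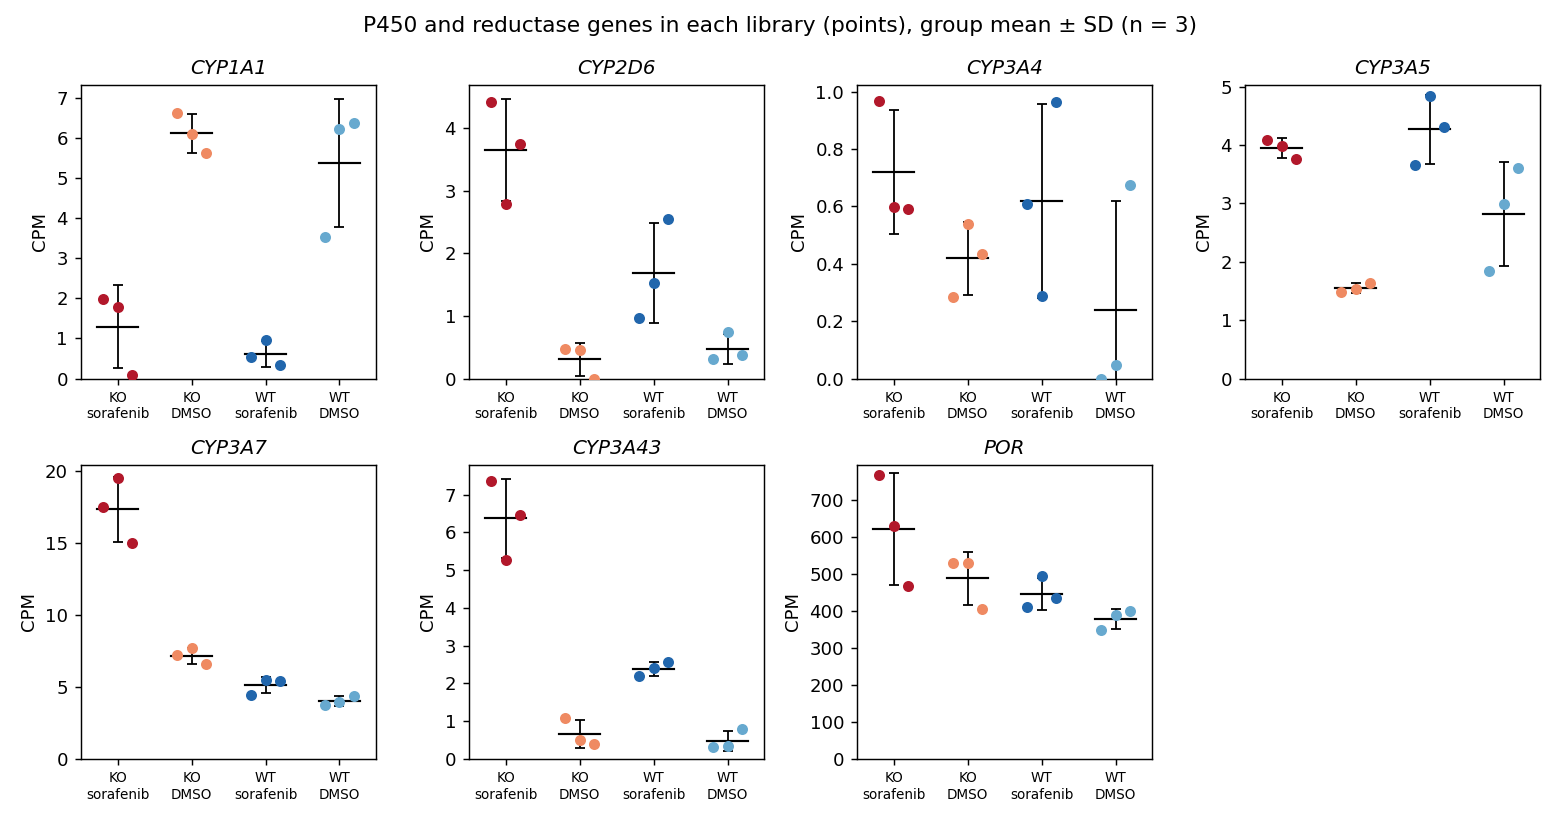
Each panel gives the CPM of 1 gene, with points for the libraries of the 4 groups and bars for the group mean and SD. CYP3A7 stands at 14.96 to 19.5 CPM in ARID1B-KO with sorafenib, above all other libraries, and CYP1A1 stands lower in the sorafenib libraries of both genotypes.

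CYP3A7, the fetal CYP3A enzyme, differed between the genotypes under both treatments. It stood at 17.5, 19.5 and 14.96 CPM in the ARID1B-KO sorafenib libraries and 7.18, 7.68 and 6.59 CPM in the ARID1B-KO DMSO libraries, against 4.45, 5.46 and 5.40 CPM in the WT sorafenib libraries and 3.73, 3.93 and 4.38 CPM in the WT DMSO libraries. Every ARID1B-KO library lay above every WT library, and within ARID1B-KO the treatments did not overlap. ARID1B-KO against WT gave a log2 fold change of 1.76 ± 0.14 in sorafenib (SE, edgeR adjusted p = 1.64e-06) and 0.83 ± 0.14 in DMSO (adjusted p = 0.000903). Sorafenib raised it in ARID1B-KO by 1.28 ± 0.14 (edgeR adjusted p = 1.02e-05). In WT the value was 0.34 ± 0.14 (adjusted p = 0.0789), which passed only when WT sorafenib replicate 1 was left out (0.43, adjusted p = 0.0494).

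The response of CYP3A7 in ARID1B-KO exceeded that in WT by 0.93 ± 0.20 on the log2 scale (edgeR, genotype by treatment term, adjusted p = 0.0495). The adjusted p ranged from 0.00564 to 0.172 over 18 alternatives, and 15 of these ended the call. Leaving out any library but ARID1B-KO sorafenib replicate 3 ended it, with values of 0.84 to 1.03 over all 12. The read-through gene CYP3A7-CYP3A51P, which shares sequence with CYP3A7, held 15.2, 2.3 and 11.3 counts in ARID1B-KO with sorafenib, 2.4, 2.5 and 6.5 in ARID1B-KO with DMSO, 30.1, 7.0 and 35.0 in WT with sorafenib and 11.9, 3.1 and 3.2 in WT with DMSO. The read-through gene rose with sorafenib in WT by 2.06 ± 0.73 (edgeR adjusted p = 0.042), a call lost in 8 of 18 alternatives. In ARID1B-KO the value was 1.27 ± 0.82 (adjusted p = 0.223). The read-through counts were kept apart from CYP3A7 here. What adding them to CYP3A7 alone would do to its difference in response was not tested.

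CYP3A43, a CYP3A enzyme of low abundance in liver, rose with sorafenib in both genotypes. It stood at 7.37, 5.27 and 6.47 CPM in the ARID1B-KO sorafenib libraries and 1.09, 0.494 and 0.385 CPM in the ARID1B-KO DMSO libraries, against 2.19, 2.39 and 2.55 CPM in the WT sorafenib libraries and 0.308, 0.328 and 0.787 CPM in the WT DMSO libraries. Sorafenib and DMSO did not overlap in either genotype, and the ARID1B-KO sorafenib libraries were the highest. The log2 fold change with sorafenib was 3.27 ± 0.39 in ARID1B-KO (edgeR adjusted p = 2.38e-05) and 2.30 ± 0.40 in WT (adjusted p = 0.000637). ARID1B-KO against WT was 1.42 ± 0.35 in sorafenib (adjusted p = 0.0091) and 0.46 ± 0.43 in DMSO (adjusted p = 0.458). An offset for transcript length ended the call in WT (1.65, adjusted p = 0.095) and that between genotypes in sorafenib (1.21, adjusted p = 0.191), and protein-coding transcripts alone also ended the call between genotypes in sorafenib (1.00, adjusted p = 0.0908). The difference in response was 0.96 ± 0.56 (edgeR adjusted p = 0.439, 95% interval -0.24 to 2.16). Of the CYP3A43 counts pooled over a group, 47.9% lay on protein-coding transcripts in ARID1B-KO with sorafenib and 70.5% in ARID1B-KO with DMSO. The share was 63.5% in WT with sorafenib and 72.4% in WT with DMSO.

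CYP3A5, which overlaps CYP3A4 in its substrates, was lowest in ARID1B-KO with DMSO and rose with sorafenib in that genotype. It stood at 4.08, 3.99 and 3.75 CPM in the ARID1B-KO sorafenib libraries and 1.47, 1.53 and 1.64 CPM in the ARID1B-KO DMSO libraries, against 3.66, 4.84 and 4.31 CPM in the WT sorafenib libraries and 1.85, 3.00 and 3.60 CPM in the WT DMSO libraries. Every ARID1B-KO DMSO library was below every other library, and the sorafenib libraries of the 2 genotypes overlapped. Sorafenib gave 1.35 ± 0.24 in ARID1B-KO (edgeR adjusted p = 5e-04) and 0.60 ± 0.23 in WT (adjusted p = 0.0543). ARID1B-KO against WT gave -0.11 ± 0.22 in sorafenib (edgeR adjusted p = 0.754) and -0.86 ± 0.24 in DMSO (adjusted p = 0.0167). The DMSO call was lost without WT DMSO replicate 2 (-0.81, adjusted p = 0.0539), WT DMSO replicate 3 (-0.64, adjusted p = 0.0844) or ARID1B-KO DMSO replicate 1 (-0.84, adjusted p = 0.0509). It was also lost on protein-coding transcripts alone (-0.67, adjusted p = 0.0562) and with only the 2 groups fitted (-0.85, adjusted p = 0.0601), whereas the WT response passed without WT DMSO replicate 3 (0.82, adjusted p = 0.0215). The difference in response was 0.75 ± 0.33 (edgeR adjusted p = 0.292).

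CYP3A4, the main adult enzyme, stayed under 1 CPM in every library. It had 23, 13 and 12 counts in the ARID1B-KO sorafenib libraries, 6, 12 and 9 in the ARID1B-KO DMSO libraries, 17, 6 and 23 in the WT sorafenib libraries and 0, 1 and 18 in the WT DMSO libraries. The WT DMSO libraries spanned nearly the whole range, and no contrast passed the test. Sorafenib gave 0.77 ± 0.85 in ARID1B-KO (edgeR adjusted p = 0.489, 95% interval -1.07 to 2.61) and 1.34 ± 0.88 in WT (adjusted p = 0.266, 95% interval -0.58 to 3.25). Without WT DMSO replicate 3 the WT response was 4.62 (adjusted p = 0.00402) and ARID1B-KO against WT in DMSO was 4.05 (adjusted p = 0.0144), both against the 1 count of the other 2 libraries.

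Reads that fit several CYP3A genes are divided between them by the quantification, so the 4 genes and CYP3A7-CYP3A51P were also summed to a single row. The sum gave 725, 642 and 533 counts in the ARID1B-KO sorafenib libraries, 213, 231 and 194 in the ARID1B-KO DMSO libraries, 334, 277.5 and 351 in the WT sorafenib libraries and 184, 159 and 255 in the WT DMSO libraries. The ARID1B-KO sorafenib libraries were the highest, and those of WT with sorafenib lay above all DMSO libraries. The summed row rose with sorafenib by 1.53 ± 0.14 in ARID1B-KO (edgeR adjusted p = 2.87e-06) and by 0.78 ± 0.14 in WT (adjusted p = 0.00101). ARID1B-KO against WT was 1.11 ± 0.14 in sorafenib (edgeR adjusted p = 8.99e-05) and 0.36 ± 0.14 in DMSO (adjusted p = 0.0826), and the difference in response was 0.75 ± 0.20 (adjusted p = 0.0913).

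CYP2D6, which oxidises many basic drugs and is not known as an inducible P450, rose with sorafenib. It had 105, 61 and 76 counts in the ARID1B-KO sorafenib libraries and 10, 10 and 0 in the ARID1B-KO DMSO libraries, against 27, 32 and 61 in the WT sorafenib libraries and 9, 16 and 10 in the WT DMSO libraries. Sorafenib and DMSO did not overlap in either genotype, and the lowest ARID1B-KO sorafenib library and the highest WT sorafenib library both held 61 counts (2.80 CPM in ARID1B-KO and 2.55 CPM in WT). The log2 fold change with sorafenib was 3.54 ± 0.66 in ARID1B-KO (edgeR adjusted p = 0.000857) and 1.83 ± 0.62 in WT (adjusted p = 0.0369). The neighbouring paralogue CYP2D7 held 2.1, 0 and 0 counts in ARID1B-KO with sorafenib, 0, 0 and 2.8 in ARID1B-KO with DMSO, 0 in each WT sorafenib library and 25.7, 2.7 and 7.7 in WT with DMSO. With both genes and the pseudogene CYP2D8P merged, the rise was 3.35 ± 0.46 in ARID1B-KO (edgeR adjusted p = 7.32e-05) and 0.90 ± 0.41 in WT (adjusted p = 0.11), where the call was lost.

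The WT call of CYP2D6 was also lost without WT DMSO replicate 1 (1.59, edgeR adjusted p = 0.122), WT DMSO replicate 3 (1.69, 0.111), WT sorafenib replicate 2 (1.90, 0.0644) or WT sorafenib replicate 3 (1.40, 0.151), and on protein-coding transcripts alone (1.83, 0.21), where the second value in each bracket is the adjusted p. ARID1B-KO against WT gave 1.12 ± 0.56 in sorafenib (edgeR adjusted p = 0.162) and -0.58 ± 0.71 in DMSO (adjusted p = 0.581). The sorafenib value passed without ARID1B-KO DMSO replicate 3 (1.13, adjusted p = 0.0486) and with only the 2 groups fitted (1.12, adjusted p = 0.0463). The difference in response was 1.70 ± 0.91 (edgeR adjusted p = 0.401, 95% interval -0.27 to 3.67). With the paralogue and pseudogene merged in, ARID1B-KO against WT gave 1.13 ± 0.40 in sorafenib (edgeR adjusted p = 0.0503) and -1.31 ± 0.47 in DMSO (adjusted p = 0.0545), and the difference in response was 2.44 ± 0.62 (adjusted p = 0.0764).

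CYP1A1, the enzyme that oxidises polycyclic hydrocarbons, fell with sorafenib in both genotypes. It had 47, 39 and 2 counts in the ARID1B-KO sorafenib libraries and 139, 136 and 117 in the ARID1B-KO DMSO libraries, against 15, 20 and 8 in the WT sorafenib libraries and 103, 133 and 170 in the WT DMSO libraries. Every sorafenib library was below every DMSO library, and ARID1B-KO sorafenib replicate 3 was the lowest of all. The log2 fold change was -2.23 ± 0.60 in ARID1B-KO (edgeR adjusted p = 0.0102) and -3.15 ± 0.65 in WT (adjusted p = 0.00293). ARID1B-KO against WT was 1.11 ± 0.67 in sorafenib (edgeR adjusted p = 0.254) and 0.19 ± 0.55 in DMSO (adjusted p = 0.833). Without ARID1B-KO sorafenib replicate 3 the first of these passed (1.64, adjusted p = 0.00671). The difference in response was 0.92 ± 0.87 (edgeR adjusted p = 0.673, 95% interval -0.98 to 2.82).

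The estimates placed CYP1A1 on different transcripts in different groups. CYP1A1-202 held 76.3, 128 and 77.6 counts in the WT DMSO libraries and 0 in the other 9 libraries, whereas CYP1A1-201 held 47.0, 39.0 and 0 counts in ARID1B-KO with sorafenib, 139, 117 and 98.9 in ARID1B-KO with DMSO, 15, 3.77 and 4.88 in WT with sorafenib and 0 in WT with DMSO. CYP1A1-201 is 2603 bases long and CYP1A1-202 is 2608, and all CYP1A1 transcripts are summed in the gene counts above. An offset for the length of the transcripts in use ended the WT call (-2.25, edgeR adjusted p = 0.0537) and not that in ARID1B-KO (-2.65, adjusted p = 0.0162).

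POR, the electron donor of all these enzymes, passed the test only between genotypes in sorafenib. It stood at 770, 630 and 467 CPM in the ARID1B-KO sorafenib libraries and 531, 529 and 406 CPM in the ARID1B-KO DMSO libraries, against 410, 495 and 436 CPM in the WT sorafenib libraries and 348, 389 and 399 CPM in the WT DMSO libraries. The ARID1B-KO DMSO libraries lay above the WT DMSO libraries, and the sorafenib groups overlapped. ARID1B-KO against WT was 0.48 ± 0.16 in sorafenib (edgeR adjusted p = 0.0476) and 0.37 ± 0.16 in DMSO (adjusted p = 0.116). The sorafenib call was lost in 16 of 19 alternatives, with adjusted p of 0.005 to 0.415 over all of them, and without any 1 library other than ARID1B-KO DMSO replicate 3 and ARID1B-KO sorafenib replicate 3. Sorafenib gave 0.35 ± 0.16 in ARID1B-KO (edgeR adjusted p = 0.101) and 0.24 ± 0.16 in WT (adjusted p = 0.29).

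Without ARID1B-KO sorafenib replicate 3, the lowest of its group, POR passed with sorafenib in ARID1B-KO (0.52, edgeR adjusted p = 0.00897) and between genotypes in DMSO (0.37, adjusted p = 0.0429). Of the POR counts, 31.7% to 32.7% lay on protein-coding transcripts in ARID1B-KO with sorafenib, 32.0% to 39.0% in ARID1B-KO with DMSO, 33.3% to 37.6% in WT with sorafenib and 34.4% to 35.8% in WT with DMSO. The rest lay mainly on transcripts annotated as retained introns, of which POR-222 alone held 7460, 5759 and 4198 counts in the ARID1B-KO sorafenib libraries. On protein-coding transcripts alone no POR contrast passed, and the values were 0.32 (edgeR adjusted p = 0.106) between genotypes in sorafenib and 0.33 (adjusted p = 0.0907) in DMSO.

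**Figure D3:**
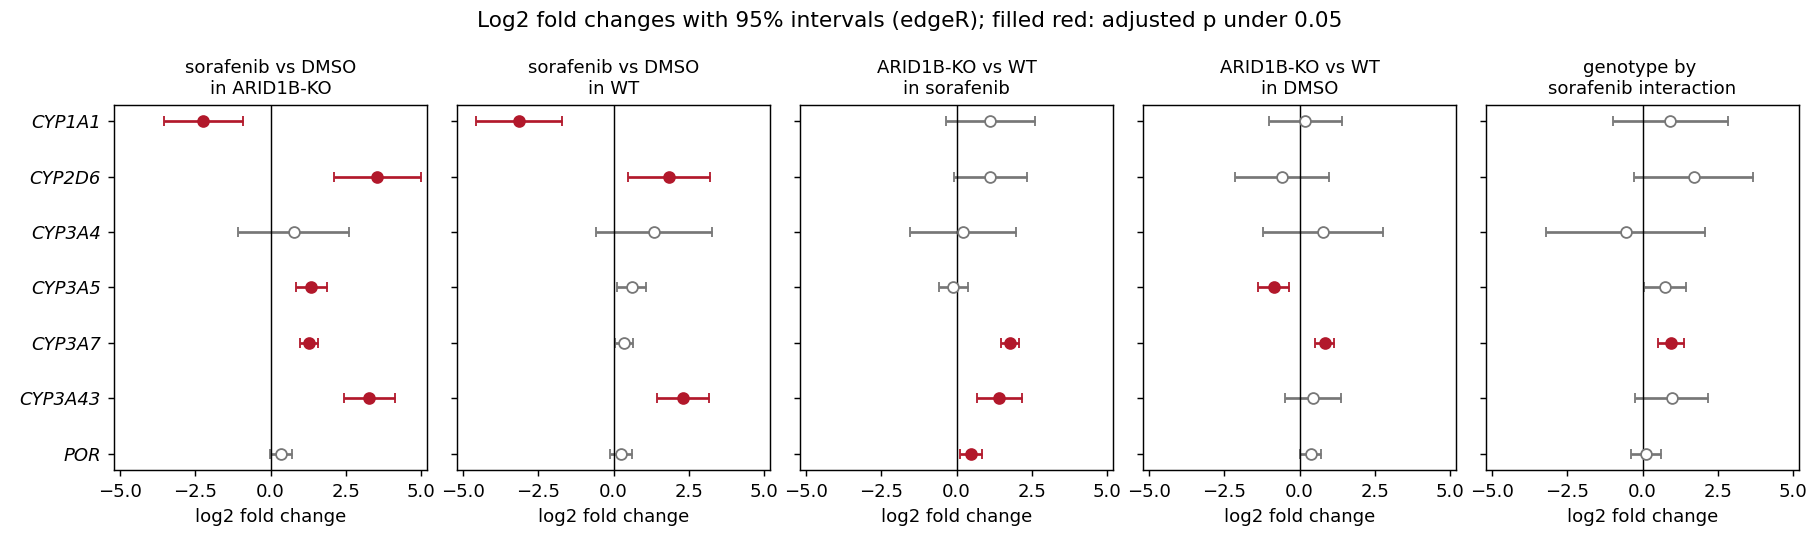
Points give the log2 fold change of each tested gene in 5 contrasts with its 95% interval, filled red where the adjusted p was under 0.05. CYP3A7 has narrow intervals in all 5 panels and CYP3A4 has intervals that include 0 in each.

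Across the 12 libraries, the 7 tested genes did not move as a block. Pearson's r of log2 CPM was 0.868 between CYP2D6 and CYP3A43, 0.836 between CYP3A7 and POR and 0.746 between CYP3A7 and CYP3A43, but 0.218 between CYP3A7 and CYP3A5, neighbours on the chromosome. CYP1A1 had a negative r with each of the other 6, the lowest being -0.724 with CYP3A43. The genes most like each in pattern, over the same 12 libraries, were FRS2 for CYP3A7 (r = 0.988), the bile acid hydroxylase gene CYP8B1 for CYP3A43 (0.981), CPN2 for POR (0.976), TSC2 for CYP3A5 (0.98), ALG1 for CYP1A1 (0.961), CRTC2 for CYP2D6 (0.960) and MOB3C for CYP3A4 (0.880). The libraries share the 4 groups, so these coefficients mostly describe differences between groups and are given with no test.

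The transcription regulators of these genes moved in both directions. Of 25 listed regulators 24 were tested, and with sorafenib 11 rose and 4 fell in ARID1B-KO (median log2 fold change 0.24, against 0.0067 over all genes), while 12 rose and 3 fell in WT (0.36, against -0.0090). ARID1B-KO against WT gave 6 higher and 1 lower in sorafenib (0.070, against -0.0043) and 6 higher and 3 lower in DMSO (0.15, against 0.0052). Over all genes, sorafenib raised 23.0% and lowered 23.7% in ARID1B-KO, and raised 17.5% and lowered 18.0% in WT. Between genotypes 13.2% were higher and 13.8% lower in sorafenib, and 14.3% and 13.5% in DMSO. NR1I2, which encodes the drug-sensing receptor PXR, stood at 15.7, 15.2 and 18.8 CPM in the ARID1B-KO sorafenib libraries and 4.61, 4.94 and 5.00 CPM in the ARID1B-KO DMSO libraries, against 12.5, 15.6 and 13.6 CPM in the WT sorafenib libraries and 7.29, 6.98 and 8.43 CPM in the WT DMSO libraries. Every ARID1B-KO DMSO library was below every WT DMSO library, as for CYP3A5, and the sorafenib groups overlapped. Sorafenib raised NR1I2 by 1.77 ± 0.13 in ARID1B-KO (edgeR adjusted p = 5.13e-07) and 0.87 ± 0.13 in WT (adjusted p = 2e-04). ARID1B-KO against WT was 0.26 ± 0.13 in sorafenib (adjusted p = 0.148) and -0.64 ± 0.13 in DMSO (adjusted p = 0.00333), the second of which was not called with an offset for transcript length (-0.61, adjusted p = 0.076).

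RXRA, the partner of PXR and CAR on DNA, rose with sorafenib by 0.85 ± 0.10 in ARID1B-KO (edgeR adjusted p = 1.76e-05) and 1.04 ± 0.10 in WT (adjusted p = 5.5e-06). NR1I3, the gene of CAR, did not exceed 0.753 CPM in any library. NR0B2, which encodes the repressor SHP, stood at 9.18, 8.71 and 8.84 CPM in the ARID1B-KO sorafenib libraries and 42.7, 48.6 and 51.7 CPM in the ARID1B-KO DMSO libraries, against 14.1, 14.7 and 13.1 CPM in the WT sorafenib libraries and 64.6, 65.7 and 61.0 CPM in the WT DMSO libraries. No 2 of the 4 groups overlapped. It fell with sorafenib by 2.42 on the log2 scale in ARID1B-KO (SE 0.09, edgeR adjusted p = 2.92e-09) and by 2.19 in WT (SE 0.09, adjusted p = 4.99e-09). CEBPA, a hepatocyte transcription factor, was higher in ARID1B-KO than in WT by 0.33 ± 0.07 in sorafenib (edgeR adjusted p = 0.0049) and 1.02 ± 0.07 in DMSO (adjusted p = 8.83e-07).

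**Figure D4:**
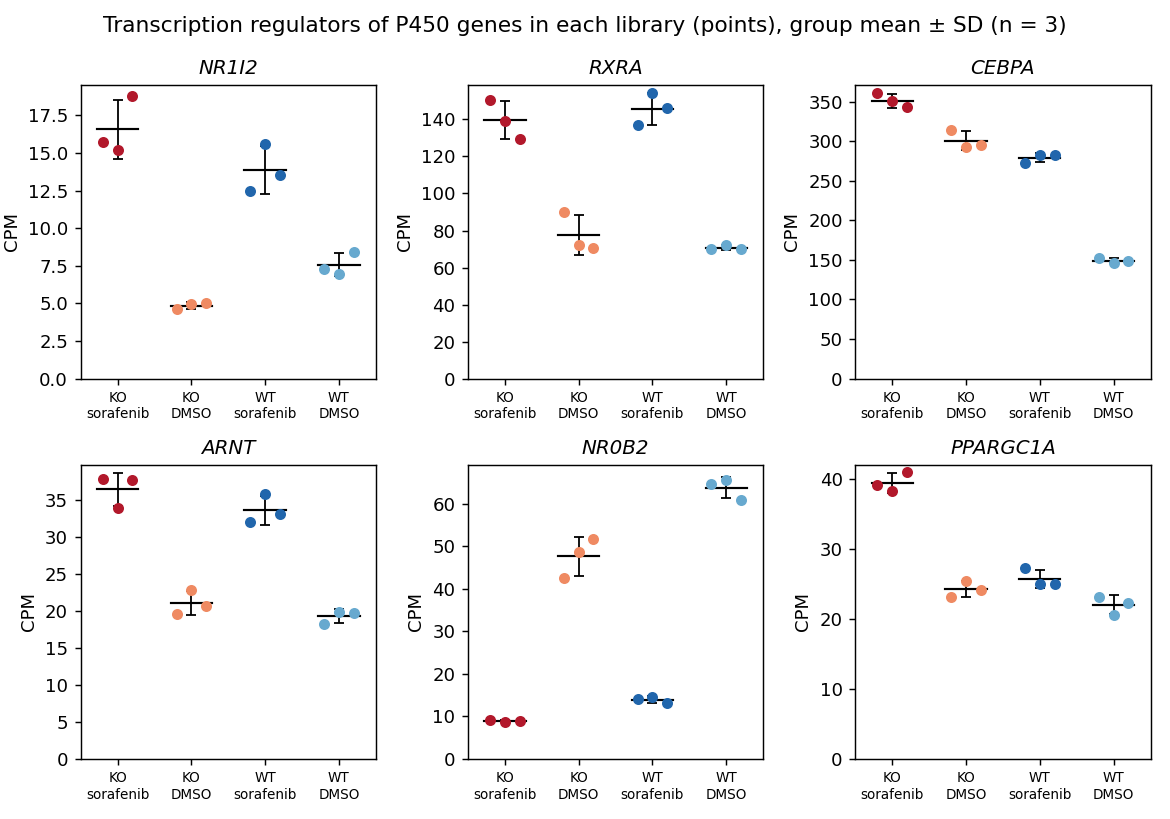
Each panel gives the CPM of 1 regulator gene, with points for the libraries of the 4 groups and bars for the group mean and SD. NR0B2 is lower with sorafenib in both genotypes, and NR1I2 is lowest in ARID1B-KO with DMSO.

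Beside CYP1A1, 6 of 11 listed AHR target genes were tested. With sorafenib 1 rose and 1 fell in ARID1B-KO and 2 fell in WT, and ARID1B-KO against WT gave 2 higher under each treatment. The background over all genes was 23.0% higher and 23.7% lower with sorafenib in ARID1B-KO, and 17.5% and 18.0% in WT. It was 13.2% higher and 13.8% lower between genotypes in sorafenib, and 14.3% and 13.5% in DMSO. The list medians were -0.19, -0.27, 0.58 and 0.27 for sorafenib in ARID1B-KO, sorafenib in WT, ARID1B-KO against WT in sorafenib and ARID1B-KO against WT in DMSO. CYP1A2, the hepatic relative of CYP1A1, was listed at 0 in all 12 libraries. NQO1, a quinone reductase, changed by -0.25 ± 0.10 with sorafenib in ARID1B-KO (edgeR adjusted p = 0.0515) and fell by 0.38 in WT (SE 0.10, adjusted p = 0.00927). TIPARP, on the same list, went the other way. It rose with sorafenib in ARID1B-KO by 0.28 ± 0.09 (edgeR adjusted p = 0.0289), and the WT value was 0.19 ± 0.10 (adjusted p = 0.136). ARID1B-KO against WT gave 0.55 ± 0.09 for TIPARP in sorafenib (edgeR adjusted p = 0.00102) and 0.46 ± 0.10 in DMSO (adjusted p = 0.00302). AHR itself, chosen after its values were seen, changed by -0.45 ± 0.11 with sorafenib in ARID1B-KO (edgeR adjusted p = 0.00415) and -0.29 ± 0.11 in WT (adjusted p = 0.0505), while its partner ARNT rose by 0.79 ± 0.09 (adjusted p = 1.18e-05) and 0.80 ± 0.09 (adjusted p = 1.76e-05).

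Of 17 other PXR and CAR target genes 11 were tested. With sorafenib 7 rose and 1 fell in ARID1B-KO (median 0.61) and 8 rose and 1 fell in WT (0.64), and ARID1B-KO against WT gave 6 higher and 0 lower in sorafenib (0.28) and 7 higher and 1 lower in DMSO (0.55). Of all genes, 23.0% rose and 23.7% fell with sorafenib in ARID1B-KO, and 17.5% and 18.0% in WT. Between genotypes 13.2% were higher and 13.8% lower in sorafenib, and 14.3% and 13.5% in DMSO. ABCB1, named after its values were seen, was the gene that fell with sorafenib. It changed by -0.64 ± 0.18 in ARID1B-KO (edgeR adjusted p = 0.0125) and -0.57 ± 0.18 in WT (adjusted p = 0.0276). The glutathione transferase GSTA1 was higher in ARID1B-KO than in WT by 2.28 ± 0.14 in sorafenib (edgeR adjusted p = 1.13e-07) and 2.96 ± 0.14 in DMSO (adjusted p = 2e-08). SULT2A1, a steroid sulfotransferase, rose with sorafenib by 1.07 ± 0.11 in ARID1B-KO (edgeR adjusted p = 8.57e-06) and 1.36 ± 0.11 in WT (adjusted p = 2.04e-06). GADD45B, a stress-response gene, rose with sorafenib in ARID1B-KO by 1.57 ± 0.27 (edgeR adjusted p = 0.000425), a call lost with an offset for transcript length (0.56, adjusted p = 0.69). CYP2C19 and CYP2A6 were listed at 0 in all libraries, and so was RXRB, a receptor gene of wide expression, so a listed 0 need not mean absence.

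Among 15 other P450 genes of families 1 to 3, 4 were tested. CYP2W1, an enzyme of fetal and tumour tissue, was the most abundant P450 of these families, at 37.8 ± 4.7 TPM in ARID1B-KO with sorafenib, 17.4 ± 0.9 TPM in ARID1B-KO with DMSO, 34.8 ± 7.1 TPM in WT with sorafenib and 19.5 ± 4.3 TPM in WT with DMSO (SD, n = 3 each). It rose with sorafenib by 1.22 ± 0.18 in ARID1B-KO (edgeR adjusted p = 0.000144) and 0.89 ± 0.18 in WT (adjusted p = 0.00203). CYP2J2, which oxidises arachidonic acid, was lower in ARID1B-KO than in WT in DMSO, by -1.12 ± 0.18 (edgeR adjusted p = 0.000606), and stood at -0.49 ± 0.18 in sorafenib (adjusted p = 0.0679). No other listed P450 gene of these families rose in any contrast, while CYP2J2 and CYP2S1 fell with sorafenib in WT. The CYP2S1 fall, -2.40 ± 0.46 (edgeR adjusted p = 0.00139), was not called with an offset for transcript length (-0.93, adjusted p = 0.539). CYP2S1 was also lower in ARID1B-KO than in WT in DMSO, at 12 counts over the 3 ARID1B-KO DMSO libraries and 166 over the 3 WT DMSO libraries, by -3.51 ± 0.51 (edgeR adjusted p = 0.000274), which the same offset ended too (-1.32, adjusted p = 0.448). Of 17 tested P450 genes of families 4 and above, which act mostly on lipids, 9 rose and 2 fell with sorafenib in ARID1B-KO (median 0.54), and 8 rose and 1 fell in WT (0.83), against 23.0% of all genes higher and 23.7% lower in ARID1B-KO and 17.5% higher and 18.0% lower in WT. CYP4F3, a fatty acid hydroxylase, rose by 1.93 ± 0.12 (edgeR adjusted p = 1.15e-07) and 1.48 ± 0.12 (adjusted p = 1.32e-06) in ARID1B-KO and WT.

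Besides POR, 13 of 15 listed genes of electron supply were tested, of which 4 rose and 3 fell with sorafenib in ARID1B-KO (median 0.078) and 2 rose and 0 fell in WT (0.17). ARID1B-KO against WT gave 4 higher and 1 lower in sorafenib (0.18) and 3 higher and 1 lower in DMSO (0.18). The same background applies, with 13.2% of all genes higher and 13.8% lower between genotypes in sorafenib and 14.3% higher and 13.5% lower in DMSO. CYB5R3, the reductase of cytochrome b5, was lower in ARID1B-KO than in WT by -0.42 ± 0.08 in sorafenib (edgeR adjusted p = 0.00178) and -0.46 ± 0.08 in DMSO (adjusted p = 0.000942). IDH1, a source of cytosolic NADPH, was higher by 0.61 ± 0.12 in sorafenib (edgeR adjusted p = 0.00201) and 0.73 ± 0.12 in DMSO (adjusted p = 0.000597). Of 15 genes of haem synthesis and breakdown, 4 rose and 6 fell with sorafenib in ARID1B-KO (median 0.18) and 5 rose and 3 fell in WT (0.084), against the same 23.0% higher and 23.7% lower of all genes in ARID1B-KO and 17.5% and 18.0% in WT. ALAD, which makes porphobilinogen, rose by 1.24 ± 0.08 in ARID1B-KO (edgeR adjusted p = 1.55e-07) and 0.83 ± 0.08 in WT (adjusted p = 5.49e-06).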

How the data were processed

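Groups of the 12 libraries were taken from their titles. Libraries were poly(A)-selected (KAPA mRNA HyperPrep, 750 ng of input RNA) and read from both ends, per the labels' protocols. Salmon (version not stated), DESeq2 1.46.0 and GRCh38 are named per the submitters' processing notes. The authors deposited an estimated count for each transcript of each library, fractional and not normalized, with 10.2% of values above 0 whole to within 1e-06. TPM values were deposited by the authors beside them, scaled within each library for transcript length, and were summed per gene to compare levels between genes. The labels do not state the use of strand or bias corrections.

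GENCODE release 44 held 165533 of the 177456 transcript identifiers (version suffix dropped) and gave names and coordinates. The unmatched 11923, with 2.87% to 3.20% of each library, were not used. Whether they include copies of members such as CYP2D6 was not checked. Sums over the transcripts of 35810 genes were rounded to whole counts. In R 4.3.3, edgeR 4.0.16 was run with TMM, filterByExpr and the robust quasi-likelihood F test on all 12 libraries with 4 group means and 5 contrasts, the last being the response in ARID1B-KO minus that in WT. Benjamini-Hochberg adjustment ran over 12821 genes, and calls needed an adjusted p under 0.05. SE was computed as the absolute log2 fold change over the root of F, and CPM with the TMM library sizes. Values are in the order of the replicate numbers. Libraries of a group differed by more than sampling noise, so none was a repeat deposit. Intervals were built from this SE of the quasi-likelihood fit, so they include variation between the replicates of a group. The floor of 3 counts covers counting error only. PCR copies were not separated.

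The members, the gene lists and the tests were chosen with earlier results of these data known. All 9 members were named in every contrast, and of each list up to 6 called genes by smallest adjusted p could be named, of which part are printed. For each tested member the 3 genes of highest Pearson's r over the libraries were taken, and the first is printed. Promoters from RefSeq matched 7 of the 9 members, and global alignments scored 1 for a match, -1 for a mismatch, -2 to open and -0.5 to extend a gap. The test procedure was checked on simulated counts. Alternatives were RLE size factors, DESeq2 1.42.0, no filter, an offset for transcript length, a replicate block, only the groups compared, each library left out, merged paralogues and, added after seeing the data, protein-coding transcripts alone. Some genes of the lists are not reported here.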

Additional observations from a re-analysis of the deposited data

Results flagged for a closer look

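Of the listed genes named here or above, 4 responded differently to sorafenib in the 2 genotypes by the interaction term of the edgeR fit, and no cause was tested. CYP3A7 responded more in ARID1B-KO than in WT, by 0.93 on the log2 scale (edgeR adjusted p = 0.0495), with a rise of 1.28 in ARID1B-KO against a value of 0.34 in WT. As given above, the CYP3A7 call was lost in 15 of 18 alternatives, among them 11 of the 12 fits that left out 1 library. NR1I2, the gene of PXR, also responded more in ARID1B-KO, by 0.90 ± 0.18 (edgeR adjusted p = 0.0424). Leaving out any 1 of the 12 libraries ended that call, with values of 0.80 to 0.99, and so did an offset for transcript length (0.89, adjusted p = 0.304) and the replicate block (0.90, adjusted p = 0.0677).

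CEBPA responded less in ARID1B-KO than in WT, by -0.68 ± 0.10 (edgeR adjusted p = 0.0181). It stood at 360, 351 and 343 CPM in the ARID1B-KO sorafenib libraries and 315, 292 and 296 CPM in the ARID1B-KO DMSO libraries, against 272, 282 and 282 CPM in the WT sorafenib libraries and 152, 146 and 148 CPM in the WT DMSO libraries. All ARID1B-KO libraries lay above all WT libraries. The call was lost without WT DMSO replicate 2 or 3, WT sorafenib replicate 2 or 3, or ARID1B-KO sorafenib replicate 2, with adjusted p of up to 0.0739 among these, and with an offset for transcript length (-0.61, adjusted p = 0.229).

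HMOX1, the haem oxygenase that degrades haem, also responded less in ARID1B-KO, by -0.71 ± 0.13 (edgeR adjusted p = 0.0306). Its mean was 77.3 ± 6.8 CPM in ARID1B-KO with sorafenib and 48.5 ± 4.0 CPM in ARID1B-KO with DMSO, against 53.0 ± 2.6 CPM in WT with sorafenib and 20.3 ± 1.2 CPM in WT with DMSO (SD, n = 3 each). The call was lost in 9 of the 12 fits that left out 1 library, all but those without WT DMSO replicate 1, ARID1B-KO DMSO replicate 1 or ARID1B-KO sorafenib replicate 3, with values of -0.78 to -0.64, and with an offset for transcript length (-0.78, adjusted p = 0.133) or the replicate block (-0.71, adjusted p = 0.0653).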

How the results depend on the processing

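Of 661 alternative values of the 7 tested members, 591 kept their direction and their side of the threshold, 47 were no longer called, 10 became called and 13 turned direction. None of the 13 was a called value. An offset for transcript length left 2870 genes and 1 member called with sorafenib in WT, 2190 genes between genotypes in DMSO, 2049 genes and 1 member between genotypes in sorafenib, and 2 genes and 0 members for the interaction. The interaction had 107 genes called in all, against 555 with DESeq2 and 19 with the replicate block. It had 0 members with RLE size factors, with no filter and with the replicate block. Fitting only the groups compared left 1 member between genotypes in DMSO. Leaving out 1 library gave 5 to 138 genes and 0 to 1 members for the interaction, where 5 came without WT sorafenib replicate 2, and 1 to 3 members between genotypes in DMSO. The members called in the other contrasts stayed within 2 to 4 for sorafenib in WT, 5 to 6 for sorafenib in ARID1B-KO and 2 to 4 between genotypes in sorafenib.

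The values that turned direction were, between genotypes in sorafenib, CYP1A1 with the length offset (-0.0073), CYP3A4 without WT sorafenib replicate 2 (-0.12) or ARID1B-KO sorafenib replicate 1 (-0.068, range -0.12 to 0.65) and CYP3A5 on protein-coding transcripts (0.067). Between genotypes in DMSO they were CYP1A1 without WT DMSO replicate 1 (-0.043, range -0.043 to 0.33 over single libraries left out), CYP3A4 on protein-coding transcripts (-0.94), CYP3A43 with the length offset (-0.33) or without ARID1B-KO DMSO replicate 1 (-0.12, range -0.12 to 1.04), and GADD45B with the length offset (0.19, against -0.92 and called). For the interaction they were CYP1A1 with the length offset (-0.41), CYP3A4 without WT DMSO replicate 1 (0.040, range -3.85 to 0.040) or on protein-coding transcripts (1.08), and POR without ARID1B-KO sorafenib replicate 1 (-0.061, range -0.061 to 0.28) or on protein-coding transcripts (-0.014). The cause was not tested.

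Deviations of same-numbered libraries from their group means correlated at -0.118 to 0.184. Differently numbered libraries were not compared, so these values cannot show whether the replicate numbers pair the samples. With the replicate block, CYP2D6 with sorafenib in WT (adjusted p = 0.0579), POR between genotypes in sorafenib (0.0502) and the CYP3A7 interaction (0.0743) were not called, and CYP3A5 with sorafenib in WT was (0.0483). Counts under 30 in most libraries limit CYP3A4, and CYP2B6 and CYP2E1 could not be tested.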
